A study of Mus musculus with 12 samples.

Results

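The genes that copy DNA, condense chromosomes and split the cell are described here in mouse nasal tissue through 10 rows of a gene count table. Of these rows, 9 lie on the DNA strand opposite a division gene, and their exons overlap its exons. They are Lcorl (opposite Ncapg), Cdc23 (Kif20a), Rccd1 (Prc1), Gm10143 (Fen1), Exosc9 (Ccna2), Gm2788 (E2f8), Cops6 (Mcm7), Gm14024 (Ckap2l) and Ints8 (Ccne2). The last is the own row of Ccna2, which in turn lies opposite Exosc9, so those 2 rows describe 1 locus. The table held 55487 rows in all, and all 10 rows passed the filter on low counts. The rows were selected on measured values of these libraries. Lcorl, Cdc23, Rccd1 and Gm10143 had been called at KDP20 day 5 in an earlier analysis, and which values chose the other 6 rows is not recorded. Day 5 against vehicle is therefore treated as used in the choice of all 10, given as a description with no test.

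RNA was sequenced from nasal tissue, labelled as nasal epithelium, of C57BL/6 male mice of 6 weeks. There were 3 groups of 4 libraries: exposure to KDP20 with collection at day 5, exposure to KDP20 with collection at day 10, and a PBS vehicle labelled day 10. The series title speaks of diesel particles and nasal inflammation; dose, route and schedule of the exposure are not in the labels, and neither is a statement that each library came from its own animal. The spread behind each p-value is that between libraries and may be technical. No vehicle was labelled day 5, so in day 5 against vehicle the exposure and the day of collection cannot be told apart.

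In a dividing cell, cyclin E and then cyclin A, bound to their kinases, start and drive DNA synthesis, in which the MCM ring unwinds DNA and the FEN1 nuclease trims the lagging strand. Condensin then compacts the chromosomes, spindle proteins pull them apart, and PRC1 and KIF20A organise the middle of the spindle where the cell cleaves. Many of the condensation, spindle and cleavage genes are switched on together late in the cycle. In the nose the dividing cells are mainly basal and progenitor cells that renew the epithelium. Many division genes have a neighbour on the other strand whose transcript runs into theirs. A library read there is given to one gene or the other by its strand, and the strand setting used in counting is not given in the sources used here. Counts in such a row may belong to either gene, and each row is given below as a row, with the gene it lies opposite.

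The promoters of 4 of the division genes are shown because a short stretch known from late cell-cycle genes lies at nearly the same place in them. This stretch, the cell-cycle genes homology region or CHR, has the letters TTTGAA. Entries from RefSeq (GRCm38.p6) were found for 9 of 18 member and partner symbols. TTTGAA began 30 bases before the start in Ncapg, in Ckap2l (on the other strand) and in 1 of 2 listed starts of Prc1, and 20 bases before it in E2f8 (on the other strand). Each sequence below is the 130 bases before the start, read 5′ to 3′ on the gene's strand, with TTTGAA and CCAAT, or their reverse complements TTCAAA and ATTGG, in capitals. They lie at chr5:45669795-45669924 (plus strand) for Ncapg, chr7:80294346-80294475 (plus strand) for Prc1, chr2:129297213-129297342 (minus strand) for Ckap2l and chr7:48881597-48881726 (minus strand) for E2f8.
Ncapg: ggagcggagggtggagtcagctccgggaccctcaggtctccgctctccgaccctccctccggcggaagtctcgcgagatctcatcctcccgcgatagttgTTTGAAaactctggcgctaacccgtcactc
Prc1: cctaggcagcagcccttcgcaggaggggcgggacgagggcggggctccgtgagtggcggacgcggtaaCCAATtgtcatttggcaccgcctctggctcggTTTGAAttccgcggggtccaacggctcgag
Ckap2l: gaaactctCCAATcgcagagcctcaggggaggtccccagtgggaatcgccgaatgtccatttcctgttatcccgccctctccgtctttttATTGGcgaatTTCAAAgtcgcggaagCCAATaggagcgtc
E2f8: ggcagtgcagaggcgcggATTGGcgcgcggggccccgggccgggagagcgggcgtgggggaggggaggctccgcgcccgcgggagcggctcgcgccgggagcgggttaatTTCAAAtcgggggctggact

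Both strands were searched, and no match of one motif overlapped a match of the other. Of 32851 RefSeq promoters, 7.77% held TTTGAA in a window of this length, and 22.4% held CCAAT. Among the other entries, Lcorl, Cops6 and Fen1 held TTTGAA 152, 206 and 124 bases before a listed start, and Mcm7 and Rccd1 held CCAAT alone. The letters TTTGGCGC, TTTCGCGC and GGCGGGAA, forms of the E2F site, were not in the windows of 250 bases of these entries. A match is a description of these letters and not a binding site.

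The overlaps that define the rows are small parts of the genes in most pairs. Coordinates are those of GENCODE M21 on mm10 (GRCm38). The Lcorl row shared 944 exon bases with Ncapg within chromosome 5, 45698666 to 45700546, and 182 of them lay in the coding part of Ncapg. The Cdc23 row shared 1271 bases with Kif20a on chromosome 18, and the Rccd1 row 911 bases with Prc1 on chromosome 7. Gm10143, an antisense RNA gene, shared 1909 bases with Fen1 on chromosome 19, which is 57.3% of its own exon length and 78.8% of that of Fen1. At the other end, Cops6 shared 64 bases with Mcm7 on chromosome 5, all of them outside the coding part of Mcm7. Exosc9 and Ccna2 shared 510 bases at their ends on chromosome 3, 36565218 to 36565727, none of which code in Ccna2. Ints8 shared 609 bases with Ccne2, Gm2788 shared 610 with E2f8 and also lay opposite a second gene, and Gm14024 shared 181 with Ckap2l. Because the Cops6 overlap is so short, its row had the highest count per kilobase of overlap, 345 ± 90.6 CPM per kb at day 5 (SD, n = 4), although the row also holds whatever falls on the rest of Cops6.

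Library totals ran from 2028315 to 2425920 counts at KDP20 day 5, from 1658420 to 2036661 at KDP20 day 10 and from 1993550 to 3227138 in vehicle. Levels are CPM, counts scaled to a fixed TMM-adjusted library size, and 3 counts, the limit that a count of 0 allows, equal 0.839 to 2.06 CPM; these limits cover counting error only. The most abundant row, CT010467.2, held 9.69% to 12.6% of counts at day 5 and 7.25% to 10.1% in vehicle. At day 10 it held 11.2% in replicate 1 and 25.5%, 17.9% and 22.9% in replicates 2, 3 and 5, so 3 of the day 10 libraries stand apart. Markers of olfactory neurons and of airway secretory and ciliated cells were present by own or opposite rows in every group. At day 5 own rows of the airway markers summed to 645 to 706 CPM and rows opposite them to 24365 to 30881 CPM. For the olfactory neuron markers these sums were 269 to 401 CPM and 8623 to 11536 CPM. Which gene such counts came from was not tested. Among 7 markers of neutrophils and other myeloid cells, the own rows of Ly6g and S100a8 were at 0 in all libraries, and the others were not. The 7 own rows summed to 8.66 to 14.4 CPM at day 5, 14.9 to 21.1 CPM at day 10 and 14.2 to 16.8 CPM in vehicle. The 1 row opposite such a marker is given further below. Fewer dividing cells and less RNA per dividing cell cannot be told apart in such bulk tissue.

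At KDP20 day 5, all 9 opposite rows and the Ccna2 row had a higher mean than in vehicle. Values below follow the replicate numbers 5, 6, 7 and 8 at day 5, 1, 2, 3 and 5 at day 10, and 2, 4, 5 and 6 in vehicle. Under edgeR's quasi-likelihood test 4 of the 10 rows passed an adjusted p of 0.05 as higher at day 5, against 0.410% of all 13181 tested rows, and nothing is read from that count since these calls helped choose the rows. In 8 of the 10 rows every day 5 library lay above every vehicle library, against 5.86% of all tested rows, again with nothing read from it. Single libraries moved the number called, which was 0 without day 5 replicate 5, 1 without day 5 replicate 8, vehicle replicate 2 or vehicle replicate 4, 2 without day 5 replicate 6 or vehicle replicate 6, and 6 without day 10 replicate 1.

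**Figure D1:**
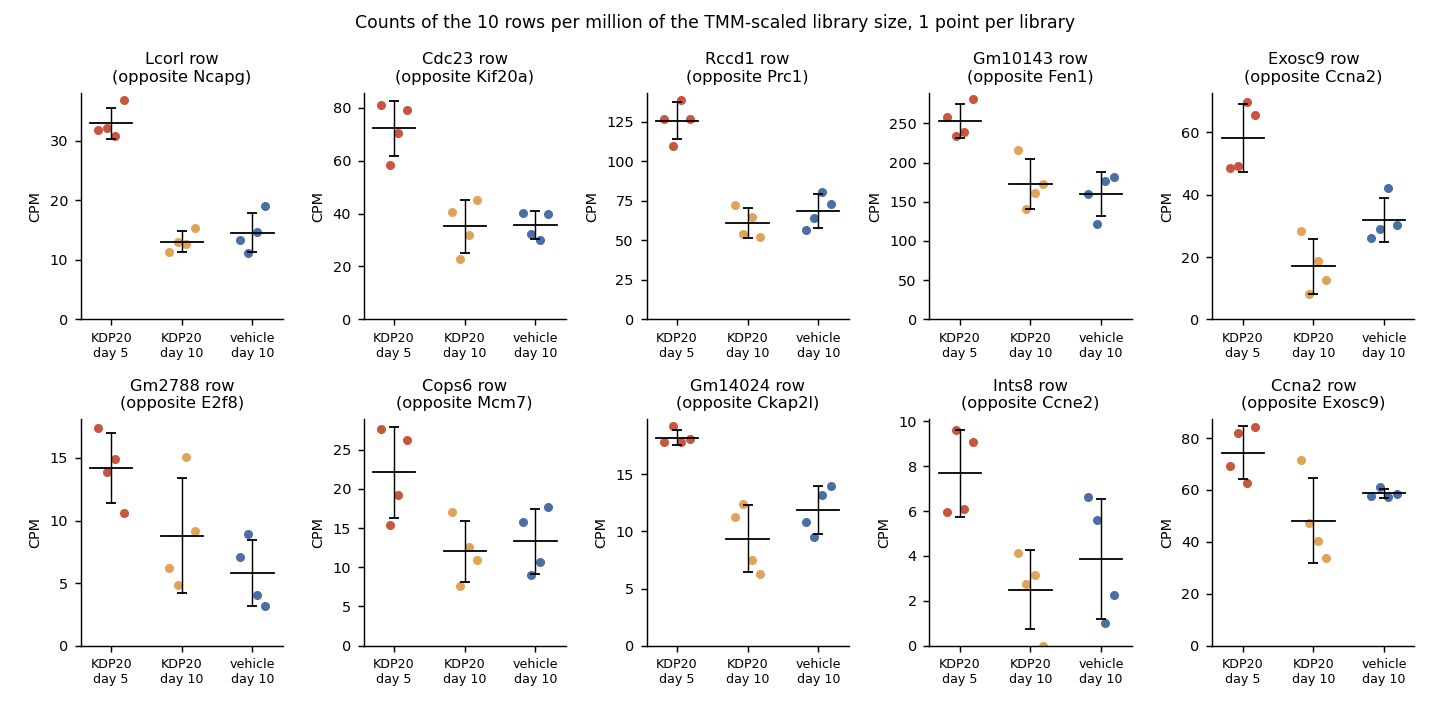
CPM of the 10 rows in each library, 1 point per library, for KDP20 day 5, KDP20 day 10 and vehicle; horizontal lines are means and error bars SDs over 4 libraries, and each panel's linear axis starts at 0. The day 5 points stand above all vehicle points in 8 panels and overlap them for Cops6 and Ints8, while day 10 and vehicle points overlap in all 10.

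Of the 10 rows, the 3 opposite genes of cytokinesis and chromosome condensation had fitted day 5 levels of 1.84 to 2.28 times the vehicle level. The Lcorl row, named for a nuclear co-repressor and lying opposite the condensin subunit Ncapg, had 31.9, 32.2, 30.8 and 36.8 CPM at KDP20 day 5, 11.3, 13, 12.6 and 15.4 CPM at KDP20 day 10, and 13.3, 11.2, 14.7 and 19.0 CPM in vehicle. All 4 day 5 libraries were above the 8 others, which were mixed. The day 5 difference from vehicle was 1.19 on the log2 scale (SE 0.23). The Cdc23 row had 81.1, 58.2, 70.5 and 79.1 CPM at day 5, 40.6, 22.7, 32.0 and 45.1 CPM at day 10, and 40.3, 32.4, 29.9 and 39.9 CPM in vehicle. Cdc23 is itself a division gene, a subunit of the anaphase-promoting complex, and lies opposite the mitotic kinesin gene Kif20a, so both of its possible sources belong to mitosis. Its day 5 difference was 1.02 (SE 0.19), and the day 10 and vehicle libraries overlapped. The Rccd1 row, opposite Prc1, which bundles microtubules in the central spindle, had 127, 110, 139 and 127 CPM at day 5, 72.5, 54.2, 64.7 and 52.0 CPM at day 10, and 56.4, 64.3, 80.7 and 72.9 CPM in vehicle. The day 5 difference was 0.88 (SE 0.15), and again the day 5 libraries stood above all others.

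Of the 10 rows, Gm10143 and Cops6 lie opposite DNA replication genes, and Gm10143 was the more abundant. It lies opposite the flap endonuclease gene Fen1 and had 258, 234, 239 and 281 CPM at KDP20 day 5, 216, 141, 161 and 172 CPM at KDP20 day 10, and 160, 121, 177 and 182 CPM in vehicle. Day 5 was highest without overlap, by 0.66 over vehicle (SE 0.15), and day 10 replicate 1 came closest to it. The Cops6 row, named for a COP9 signalosome subunit and lying opposite the replicative helicase subunit Mcm7, had 27.6, 15.4, 19.2 and 26.2 CPM at day 5, 17, 7.55, 12.6 and 10.9 CPM at day 10, and 15.8, 8.95, 10.7 and 17.7 CPM in vehicle. Its day 5 and vehicle libraries overlapped, with a difference of 0.75 (SE 0.29).

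Next are the rows at the cyclin A2 and E2F8 genes. The Exosc9 row, named for an RNA exosome subunit and lying opposite Ccna2, had 48.4, 49.1, 69.6 and 65.5 CPM at KDP20 day 5, 28.3, 8.24, 18.8 and 12.6 CPM at KDP20 day 10, and 26.1, 29.1, 42.1 and 30.3 CPM in vehicle. Day 5 lay above both other groups, by 0.87 over vehicle (SE 0.24). The own row of Ccna2, the gene of cyclin A2, had 69.2, 81.8, 62.6 and 84.1 CPM at day 5, 71.5, 47.4, 40.2 and 33.7 CPM at day 10, and 57.7, 61.2, 57.3 and 58.4 CPM in vehicle. Its vehicle libraries were the tightest of the 10 rows relative to their mean, and its day 5 difference of 0.34 (SE 0.19) was the smallest of the 10. Neither row of this locus was called at day 5. The Gm2788 row, opposite the repressor gene E2f8, had 17.4, 13.9, 14.9 and 10.6 CPM at day 5, 6.17, 4.81, 15.1 and 9.14 CPM at day 10, and 7.05, 8.95, 4.06 and 3.17 CPM in vehicle. Day 5 and vehicle did not overlap, with a difference of 1.24 (SE 0.37), but the row held 7 to 41 counts per library.

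The 2 remaining rows held 0 to 42 counts per library. The Gm14024 row, an antisense gene opposite the spindle protein gene Ckap2l, had 17.8, 19.2, 17.8 and 18.1 CPM at KDP20 day 5, 11.3, 12.4, 7.53 and 6.28 CPM at KDP20 day 10, and 10.8, 9.51, 13.2 and 14.0 CPM in vehicle. The day 5 libraries were nearly equal and above all others, by 0.63 over vehicle (SE 0.27). The Ints8 row, named for an Integrator subunit and lying opposite the cyclin E2 gene Ccne2, had 5.95, 9.62, 6.07 and 9.07 CPM at day 5, 4.12, 2.75, 3.14 and 0 CPM at day 10, and 6.64, 5.59, 1.02 and 2.26 CPM in vehicle. Day 5 and vehicle overlapped, and the difference of 0.92 had an SE of 0.54, so it was not resolved at this depth.

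At KDP20 day 10, 0 of the 10 rows passed the edgeR test against vehicle, against 7.08% of all tested rows in either direction. Only the Exosc9 row came near: it averaged 17 ± 8.70 CPM at day 10 and 31.9 ± 7.02 CPM in vehicle (SD, n = 4 each), with a log2 fold change of -0.87 (SE 0.27, unadjusted p 0.0036 and adjusted p 0.0505 by edgeR). It was the 1 row of the 10 with an unadjusted p under 0.05 by edgeR, against 3137 of all 13181 tested rows. It was also the 1 that DESeq2 called. The other 9 rows ranged from -0.67 (Ints8) to 0.54 (Gm2788), with adjusted p between 0.402 and 0.984 by edgeR. Day 10 replicate 1 set the count: without it the Exosc9 row fell by 1.25 (adjusted p 0.00115) and the Ccna2 row by 0.54 (adjusted p 0.0264), both by edgeR. With the CT010467.2 share in the model the Exosc9 value was 0.02, and without the 3 day 10 libraries above 15% it was -0.16 (edgeR adjusted p 0.999 and 0.987). These tests share the vehicle libraries with the day 5 comparison.

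Against KDP20 day 5, the KDP20 day 10 means were lower in all 10 rows, and 7 were called lower by edgeR, against 5.49% of all tested rows. In 7 rows, all of the 10 but Gm2788, Cops6 and Ccna2, every day 10 library lay below every day 5 library, against 6.76% of all tested rows. The same day 5 libraries took part in choosing the rows, so both counts are a description and no p is given. The log2 fold changes of the called rows were -1.75 for Exosc9 (SE 0.27), -1.33 for Lcorl (SE 0.24), -1.04 for Rccd1 (SE 0.16), -1.03 for Cdc23 (SE 0.20), -0.96 for Gm14024 (SE 0.29), -0.62 for Ccna2 (SE 0.19) and -0.55 for Gm10143 (SE 0.15). Gm2788, Cops6 and Ints8 were at -0.70, -0.86 and -1.59, with SEs of 0.38, 0.30 and 0.61, and were not called. The count was 4 without any 1 of day 10 replicate 3, day 10 replicate 5, day 5 replicate 5 or day 5 replicate 8.

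The day 10 libraries differed among themselves along with the share of CT010467.2. The mean of the 9 opposite rows, as log2 CPM centred on each row's mean over the 12 libraries, was 0.69, 0.56, 0.65 and 0.75 at KDP20 day 5, -0.12, -0.68, -0.28 and -0.64 at KDP20 day 10, and -0.13, -0.29, -0.34 and -0.18 in vehicle. The 2 lowest of the 12 libraries, day 10 replicates 2 and 5, were the 2 with the highest share of CT010467.2. With this share in the model, or with the 3 day 10 libraries above 15% left out, 0 of the 10 rows were called in day 10 against day 5, although all 10 stayed below 0. The second of these leaves 1 day 10 library, which is assumed to vary like the other groups. With the share in the model the log2 fold changes were -1.58 for Lcorl, -0.78 for Cdc23, -0.83 for Rccd1, -0.33 for Gm10143, -1.04 for Exosc9, -0.43 for Gm2788, -0.37 for Cops6, -0.98 for Gm14024, -0.72 for Ints8 and -0.26 for Ccna2. Lcorl and Gm14024 were thus at least as far below 0 as without it, and the other 8 were nearer to 0. For day 5 against vehicle the covariate left 5 rows called. The part of this share in the day 10 values was not tested further.

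**Figure D2:**
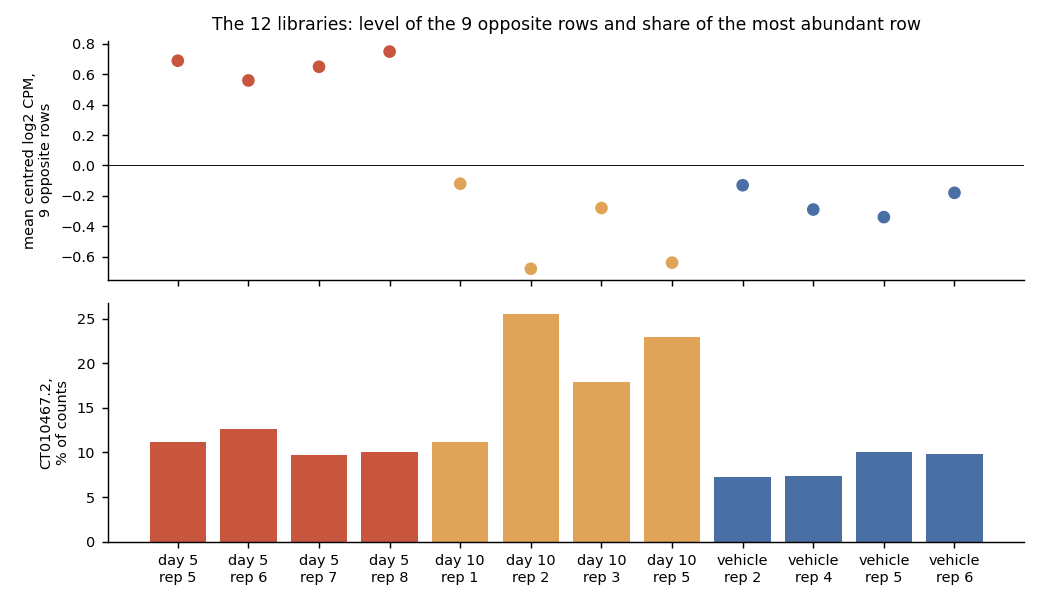
Upper panel, the mean centred log2 CPM of the 9 opposite rows in each of the 12 libraries; lower panel, the percent of all counts held by the row CT010467.2, as bars from 0. The 4 day 5 libraries lie between 0.56 and 0.75 with CT010467.2 at 9.69% to 12.6%, and day 10 replicates 2 and 5 are lowest in the upper panel and highest in the lower.

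The own rows of Ncapg, Kif20a, Prc1, Mcm7 and Ccne2 differed from vehicle by -0.65 to 0.13 at day 5, and none was called by edgeR. Ncapg had 77.3, 60.6, 77.5 and 60.5 CPM at KDP20 day 5, 63.3, 16.5, 25.1 and 26.3 CPM at KDP20 day 10, and 60.2, 55.4, 66.0 and 70.7 CPM in vehicle. Its day 5 difference from vehicle was 0.13 (SE 0.24), beside 1.19 for the Lcorl row. Kif20a, Mcm7 and Ccne2 likewise differed by 0.03 (SE 0.13), 0.09 (SE 0.18) and -0.08 (SE 0.16). The Prc1 row had 61.2, 68.3, 93.4 and 62.5 CPM at day 5 against 129, 120, 86.8 and 112 CPM in vehicle, a difference of -0.65 (SE 0.17). The difference between a row and its partner was not tested. Own rows of Fen1, E2f8 and Ckap2l held 0 to 8 counts per library and did not pass the filter, so at these 3 loci the counts lay almost wholly in the opposite row.

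Own rows of 2 partners, Ccne2 and Ncapg, were called lower by edgeR at day 10 against vehicle. Ccne2 had 111, 56.3, 74.7 and 74.2 CPM at KDP20 day 10 and 139, 134, 169 and 136 CPM in vehicle, without overlap, as had 5.01% of all tested rows in that direction. It fell by 0.86 on the log2 scale (SE 0.16, adjusted p 0.00608 by edgeR). A GC correction ended both calls, at -0.41 for Ccne2 and -0.47 for Ncapg (edgeR adjusted p 0.0971 and 0.23). Ncapg fell by 0.91 (SE 0.26, adjusted p 0.0348 by edgeR), with day 10 replicate 1 at 63.3 CPM inside the vehicle range. The Ncapg call was lost without any 1 of day 10 replicates 2, 3 or 5 or of the 4 vehicle libraries (adjusted p 0.0565 to 0.14 by edgeR). In a model holding the CT010467.2 share Ncapg stood at 0.04 and Ccne2 at -0.36, both with an edgeR adjusted p of 0.999. Kif20a had 139, 141, 102 and 119 CPM at day 10 and 154, 155, 186 and 150 CPM in vehicle, without overlap, and was not called. Kif20a, Prc1 and Mcm7 were at -0.36, -0.30 and 0.24, with adjusted p of 0.0972, 0.296 and 0.453 by edgeR.

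**Figure D3:**
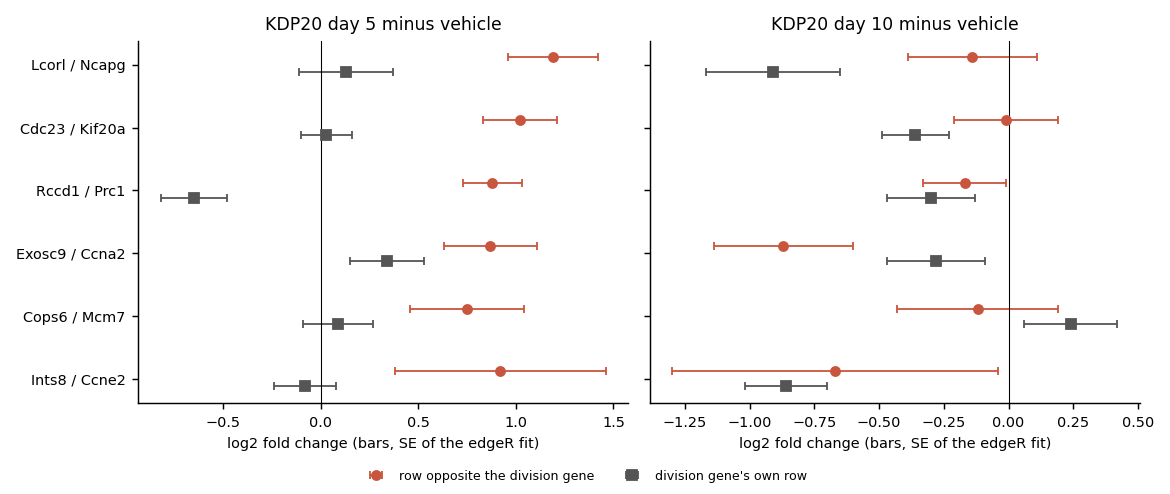
Log2 fold changes of the 6 pairs in which both rows were tested, for KDP20 day 5 minus vehicle (left) and KDP20 day 10 minus vehicle (right); circles are rows opposite a division gene, squares the division gene's own row, bars the SE of the edgeR fit. On the left the circles lie at 0.75 to 1.19 and the squares at -0.65 to 0.34; on the right no circle was called, and the squares of Ncapg (-0.91) and Ccne2 (-0.86) were.

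The genes that name the rows belong to other complexes, whose own rows give a further comparison. At day 5 against vehicle, 4 own rows of the RNA exosome, 3 of the COP9 signalosome and 12 of Integrator were tested. Of these, 0 were called by edgeR. Over all tested rows 0.410% were called higher and 0.25% lower, so nothing is read from this count. In the same order, 2, 1 and 1 rows had an unadjusted p under 0.05 by edgeR, against 2144 of all 13181 tested rows. DESeq2 called 1, 0 and 0, and median log2 fold changes were 0.22, 0.18 and -0.12. These lists include Exosc9, Cops6 and Ints8 themselves. At day 10 against vehicle, 1 own row of Integrator was called higher and 1 lower by edgeR, against 3.93% and 3.15% of all tested rows, and 0 of the other 2 complexes were called. Of the exosome rows 2 had an unadjusted p under 0.05 by edgeR and DESeq2 called 1, and of the COP9 rows these counts were 1 and 0. At that unadjusted p stood 3137 of all 13181 tested rows.

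The division genes as a whole were read through 6 lists of 153 genes for DNA replication, cyclins and E2F factors, condensation, spindle and kinetochore, cytokinesis, and the anaphase-promoting complex. Of these, 44 had an opposite row in the table, in 48 rows, and 37 rows passed the filter. The other 109 genes had no opposite row. Their own rows had a median of 34 counts over the 12 libraries together, and 29 passed the filter. The own rows of Mki67, Pcna, Top2a and Cdk1 held 321, 176, 43 and 3 counts over the 12 libraries. How far own rows hold reads of the named gene was not tested. At KDP20 day 5 against vehicle 34 of the 37 lay above 0, with a median of 0.38, and 5 were called higher by edgeR. Without the 9 rows described above, 25 of 28 lay above 0, with a median of 0.28, and 1 was called. The background was not 0 either: 70.9% of all 3981 tested rows opposite a protein-coding gene lay above 0, with a median of 0.17, against -0.03 over all tested rows. Calls higher made up 1.21% of that class and 0.410% of all tested rows. Own rows of the lists had a median of 0.05 over 62 tested, with 1 called, Cdc23.

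Beyond the 9, the called row at day 5 was LTO1, which lies opposite the cyclin D1 gene Ccnd1. It averaged 1226 ± 227 CPM at KDP20 day 5, 702 ± 131 CPM at KDP20 day 10 and 771 ± 141 CPM in vehicle (SD, n = 4 each), with a day 5 log2 fold change of 0.67 (SE 0.16). Pdzd11, opposite the chromokinesin gene Kif4, and Gm44985, opposite the mitotic kinase gene Plk1, had larger differences of 1.82 (SE 0.49) and 1.31 (SE 0.38) and were not called by edgeR. Gm14091 (opposite Knstrn) was at 0.75, Kctd18 (opposite Sgo2a, a protector of centromere cohesion) at 0.73, Spef1 (opposite the phosphatase gene Cdc25b) at 0.70, Gm43126 (opposite the cyclin D2 gene Ccnd2) at 0.56, Lat2 (opposite Rfc2) at 0.38 and Eif4a2 (opposite Rfc4) at 0.34, none of them called by edgeR. DESeq2 called 4 of the 28 rows, and its share over all rows is not given here.

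At KDP20 day 10 against vehicle, 0 of the 37 opposite rows were called by edgeR, with a median of -0.02. By edgeR 7 had an unadjusted p under 0.05, against 3137 of all 13181 tested rows, and DESeq2 called 4. The class opposite protein-coding genes, of 3981 tested rows, had a median of 0.08, with edgeR calls at 8.74% (higher) and 4.09% (lower). Of the 62 own rows, 4 were called lower and 1 higher by edgeR, against 3.15% and 3.93% of all tested rows. Besides Ncapg and Ccne2, Rfc4, a subunit of the clamp loader of replication, averaged 11.6 ± 2.83 CPM at day 10 and 23.8 ± 3.94 CPM in vehicle and fell by 1.03 (adjusted p 0.0167 by edgeR). Knstrn, a kinetochore protein gene, averaged 3.40 ± 2.29 CPM at day 10 and 10 ± 1.27 CPM in vehicle and fell by 1.58 (adjusted p 0.0438 by edgeR). Ncaph2, a condensin subunit gene, averaged 313 ± 63.4 CPM at day 10 and 217 ± 27.0 CPM in vehicle and rose by 0.53 (adjusted p 0.03 by edgeR). The Rfc4 row lies opposite Eif4a2, the Knstrn row opposite Gm14091 and the Ncaph2 row opposite Sco2 and Tymp. Their counts may belong to a gene on either strand. In the model with the CT010467.2 share none of these 3 calls remained, at log2 fold changes of -0.83, -1.34 and 0.08.

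At KDP20 day 10 against KDP20 day 5, 10 of the 37 opposite rows were called lower and 0 higher by edgeR, with a median of -0.34. Over all tested rows 5.49% were called lower and 4.66% higher. The 37 include the 9 rows that the day 5 libraries helped to choose, so this count is a description. With the CT010467.2 share in the model, or without the 3 day 10 libraries above 15%, 0 of the opposite rows were called. The 28 rows outside the 9 had a median of -0.21, against -0.08 for all tested rows opposite a protein-coding gene, of which 13.6% were called lower. The 4 called among the 28 were Kctd18 (-1.38), Eif4a2 (-1.0), LTO1 (-0.80) and Gm43126 (-0.79). Of the own rows, 7 were called lower, against 5.49% of all tested rows: Cdc23, Ccna2, Rfc4, Cdk4, Gins2, Ncapg and Ccne2. The last 5 of them were at -1.21, -0.61, -0.49, -1.05 and -0.78. Tk1, the thymidine kinase gene, was called higher at 0.50. The Cdk4, Gins2 and Tk1 rows lie opposite Tspan31, Gse1 and Afmid, in that order, and their counts may belong to either gene.

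**Figure D4:**
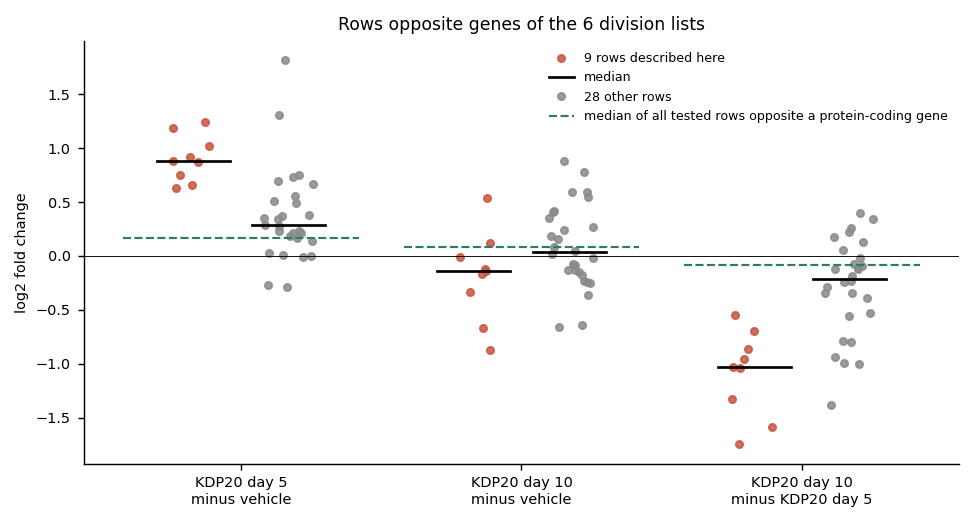
Log2 fold changes of the 37 tested rows opposite genes of the 6 division lists, in the 3 comparisons; red points are the 9 rows described here, grey points the 28 others, black bars their medians and green dashed lines the median of all tested rows opposite a protein-coding gene. At day 5 the grey median of 0.28 lies above the dashed line at 0.17, and at day 10 against vehicle the points lie on both sides of 0.

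Markers of the cells that divide in this tissue were read the same way. The own rows of 7 basal cell markers summed to 59.2 to 64.0 CPM at KDP20 day 5, 65.3 to 109 CPM at KDP20 day 10 and 40.6 to 82.8 CPM in vehicle. The 2 rows opposite such markers summed to 407 to 1090 CPM at day 5, 390 to 609 CPM at day 10 and 311 to 548 CPM in vehicle, and at day 5 against vehicle 1 of the 2 lay above 0 and was called higher (0.410% of all tested rows were), while the other lay below 0. Of the 6 tested own rows 3 lay above 0 and 3 below, with a median of -0.03. Own rows of 7 olfactory progenitor markers summed to 8.41 to 21.2 CPM, 9.14 to 23.9 CPM and 8.30 to 14.0 CPM in the same groups, and 0 of them passed the filter. Rows opposite airway secretory and ciliated markers summed to 24365 to 30881 CPM at day 5, 19147 to 23270 CPM at day 10 and 22342 to 28868 CPM in vehicle. At day 10 against day 5, 2 of the 3 were called lower by edgeR, against 5.49% of all tested rows. The 1 row opposite a neutrophil or myeloid marker had 0.504 to 33.1 CPM at day 5, 0 to 0.628 CPM at day 10 and 2.90 to 19.9 CPM in vehicle. It was called lower by edgeR at day 10 against day 5 and against vehicle, as were 5.49% and 3.15% of all tested rows. The part of these markers in the values of the 10 rows was not tested.

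The rows whose profile over the 12 libraries was most like the mean of the 9 opposite rows were Vps35l, Armc7, Polr2b, Gm20628 and Pcdhgc3. Likeness was the root-mean-square distance between centred log2 CPM, over 10059 rows, and these 5 lay at 0.221, 0.222, 0.224, 0.227 and 0.230. Of the 9 rows themselves, Rccd1 was nearest to their mean at 0.162, Cdc23 next at 0.236 and Ints8 farthest at 0.693. All 5 alike rows thus lay nearer to that mean than any of the 9 but Rccd1. They are the nearest of 10059 rows, while the 9 were not picked by distance and include low-count rows such as Ints8. A profile this near the mean also occurred in rows such as Armc7, so it is not particular to rows opposite division genes. Vps35l lies opposite Knop1 and 1700016B15Rik, Polr2b opposite Igfbp7 and Pcdhgc3 opposite BC037039, while Armc7 lies opposite no gene. None of the genes opposite the 5 rows is in the 6 division lists, but these lists hold no histone genes. Gm20628, which lies opposite the histone genes Hist2h2bb and Hist2h3b, averaged 719 ± 97.6 CPM at KDP20 day 5, 327 ± 80.1 CPM at KDP20 day 10 and 434 ± 78.4 CPM in vehicle (SD, n = 4 each). The likeness uses the day 5 libraries that chose the rows and is a description.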

How the data were processed

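RNA-seq gene counts of 12 libraries were used. Per the submitters' processing notes, the authors used FastQC, Trim Galore, STAR (mm10) and HTSeq and deposited counts; their versions, the annotation release and the strand setting: not given in the sources used here. Members, lists, tests and naming rule were chosen with earlier results of these data known. A row was called opposite a gene when exons of GENCODE M21 overlapped by at least 50 bases on the other strand (bedtools 2.31.1, Python 3.11.15). In R 4.3.3, rows were filtered with filterByExpr, leaving 13181, and scaled with TMM; tests were quasi-likelihood F tests of edgeR 4.0.16 over all 12 libraries, with a Benjamini-Hochberg adjusted p under 0.05 as a call. The SE was the log2 fold change divided by the square root of F. The pipeline was checked on simulated data. Named are the 10 rows, their partners, list rows called in any comparison, the 3 opposite rows with the largest change per comparison among the rest, and the 5 most alike rows. Alternatives were scaling by DESeq2 1.42.0 or upper quartile, other filters, the DESeq2 test, 8 libraries alone, a replicate block, a GC correction, the CT010467.2 share as a covariate, an overlap of 200 bases, and leaving out libraries. Leaving out 3 day 10 libraries together was chosen after seeing the data.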

Additional observations from a re-analysis of the deposited data

How the results depend on the processing

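Depth limits the Ints8, Gm2788, Gm14024 and Cops6 rows, which held 0 to 65 counts per library. The log2 fold changes of all 10 rows kept their direction in day 5 against vehicle and in day 10 against day 5 under all alternatives run; Ints8 did not pass the 10 CPM filter. Numbers of calls moved. Leaving out 1 library at a time gave 0 to 6 of the 10 rows for day 5 against vehicle, 0 to 2 for day 10 against vehicle and 4 to 9 for day 10 against day 5. The same gave 0 to 12, 0 to 9 and 7 to 15 of the list rows opposite division genes. For these list rows at day 5 (5 called), the 8 libraries alone gave 12, no filter 10, and the DESeq2 test, the GC correction and the CT010467.2 covariate 8 each. For day 10 against vehicle, the 10 CPM filter, upper-quartile scaling, no filter and the DESeq2 test each called 1 of the 10 rows, Exosc9, and 1, 1, 2 and 4 of the list rows. For day 10 against day 5, the CT010467.2 covariate and leaving out the 3 day 10 libraries each called 0 of the 10 rows and 0 list rows. The causes were not tested.

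Same-numbered libraries of different groups had correlations of -0.0894 to 0.124 between their deviations from the group means. Differently numbered libraries were not set beside them, so whether the numbers pair the samples is not decided. Only the numbers 2, 5 and 6 occur in more than 1 group, so a replicate block leaves few libraries to measure the spread. The replicate block called 0 of the 10 rows and 0 list rows for day 5 against vehicle, 1 and 3 for day 10 against vehicle, and 4 and 6 for day 10 against day 5.

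In day 10 against vehicle, values of 8 of the 10 rows and of the own rows of Ncapg and Mcm7 changed sign under some alternatives. The CT010467.2 covariate gave 0.31 for Cdc23, 0.11 for Rccd1, 0.02 for Exosc9, 0.52 for Cops6, 0.54 for Ints8, 0.19 for Ccna2 and 0.04 for the called own row of Ncapg. Without the 3 day 10 libraries, the values were 0.19 for Cdc23, 0.09 for Rccd1, 0.38 for Cops6, 0.03 for Ints8, 0.29 for Ccna2, 0.01 for Ncapg and -0.04 for Mcm7. The GC correction gave 0.34 for Lcorl and 0.14 for Cdc23, DESeq2 scaling and test 0.01 each and no filter 0.00 for Cdc23, and the replicate block -0.13 for Gm10143. Leaving out 1 library moved Lcorl between -0.25 and 0.01, Cdc23 between -0.15 and 0.16, Gm10143 between -0.01 and 0.21 and Cops6 between -0.34 and 0.06. The GC correction ended the calls of the own rows of Ncapg (-0.47), Ccne2 (-0.41), Rfc4 (-0.76), Knstrn (-1.43) and Ncaph2 (0.37).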

Other observations

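The own row of Ube2c, the gene of an ubiquitin-conjugating enzyme of the anaphase-promoting complex, was singled out after its values were seen. It had 0.425, 149, 0.934 and 282 CPM at KDP20 day 5, 192, 4.12, 5.65 and 0.571 CPM at KDP20 day 10, and 0.83, 31.3, 0.508 and 3.17 CPM in vehicle. High and low libraries occurred in all 3 groups, and its day 5 log2 fold change of 3.36 had an SE of 1.19. The row lies opposite Tnnc2, a troponin gene of skeletal muscle, and the rows opposite muscle markers summed to 10.6 to 722 CPM at day 5, 8.93 to 465 CPM at day 10 and 9.54 to 78.6 CPM in vehicle. Whether these move together was not tested.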
